A study of Mus musculus with 9 samples.

Results

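A set of 10 genes that mark the cytoskeleton and differentiation of young neurons was followed in the embryonic mouse optic cup. They are Stmn2, Stmn3, Gap43, Dcx, Tubb3, Elavl3, Elavl4, Nefl, Nefm and Dpysl3, out of 18193 genes with a named probe set on the array. They were chosen by gene symbol, and 22 of 34945 probe sets with a single symbol in the platform annotation belonged to them. Each gene is represented by the probe set with the highest mean over all arrays, and the others are given beside it. RNA from laser-microdissected cups at E11.5 was hybridised to 9 arrays, 3 from each of 3 regions. Fissure samples held cup cells up to 5 cell diameters from the margin of the optic fissure, the ventral cleft of the cup. Nasal and temporal samples came from the middle of either side. The labels give all 9 samples the same age and name no treatment or mutation, and strain and number of embryos per sample are not given in the sources used here. The samples of a region are lettered A, B and C. Whether 1 letter stands for the same embryos in all regions is not stated, so the p-values rest on the spread among the arrays.

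Newborn neurons build axons from microtubules and neurofilaments, and many genes for this machinery are switched on together when a progenitor leaves the cell cycle. Stathmins (Stmn2, Stmn3), doublecortin (Dcx), the neuronal beta-tubulin Tubb3 and collapsin response mediator proteins (Dpysl3) act on or form microtubules. Gap43 encodes a membrane protein of growth cones, Nefl and Nefm the light and medium neurofilament chains, and Elavl3 and Elavl4 RNA-binding proteins of the Hu family. In the mouse retina the first neurons to be born are retinal ganglion cells, and most cells of the cup at this age are dividing progenitors.

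The deposited values were intensities on a linear scale. All 9 arrays had the same mean of 150 after trimming of 2% at either end, and their medians lay between 27.5 and 30.3. The 40th percentile, used below as the lower limit for testing, lay between 15.7 and 17.5. Of the neural retina progenitor genes, Pax6 read 1442.5 to 3767 and Sox2 1267 to 2381 over the 9 arrays, while Hes5 read 6.90 and 8.70 in fissure arrays A and B. The summed intensity of 11 such genes was 9027 to 10934 in fissure, 13807 to 18136 in nasal and 15203 to 17909 in temporal samples. The 3-prime to 5-prime signal ratio of Gapdh, a measure of RNA integrity, was 14.5 in fissure array C against 4.42 to 8.64 in the other arrays. Control poly-A RNAs added during preparation averaged 6.41 to 7.33 on the log2 scale in fissure, 6.09 to 6.63 in nasal and 5.85 to 6.56 in temporal arrays. Within every letter the fissure array was the highest and the temporal array the lowest. A fit with this signal as a covariate therefore cannot fully separate it from region. Fissure array B correlated at 0.971 and 0.964 with its fellow fissure arrays and at 0.960 to 0.970 with arrays of the nasal and temporal cup.

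Dpysl3 was higher in the fissure than in both sides of the cup. Gap43 was lower in the fissure than in the nasal cup, and Stmn3 was higher in the fissure by a narrow margin. The other members gave no difference past the threshold and mostly read near the lower limit for testing. Of the 10 members 9 could be tested, and Dcx could not. Against the mean of the nasal and temporal cup, Dpysl3 and Stmn3 rose and Gap43 fell in the fissure at an adjusted p below 0.05 (limma, adjusted over 12770 genes). Among all genes tested 5.72% rose and 2.88% fell in this comparison. Dpysl3 was the member whose fissure arrays did not overlap with the other 6, and 14.2% of all genes showed such a separation. The median log2 change of the tested members was 0.03, against 0.04 for all genes. Changes are on the log2(intensity + 16) scale, which understates those of dim genes.

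**Figure D1:**
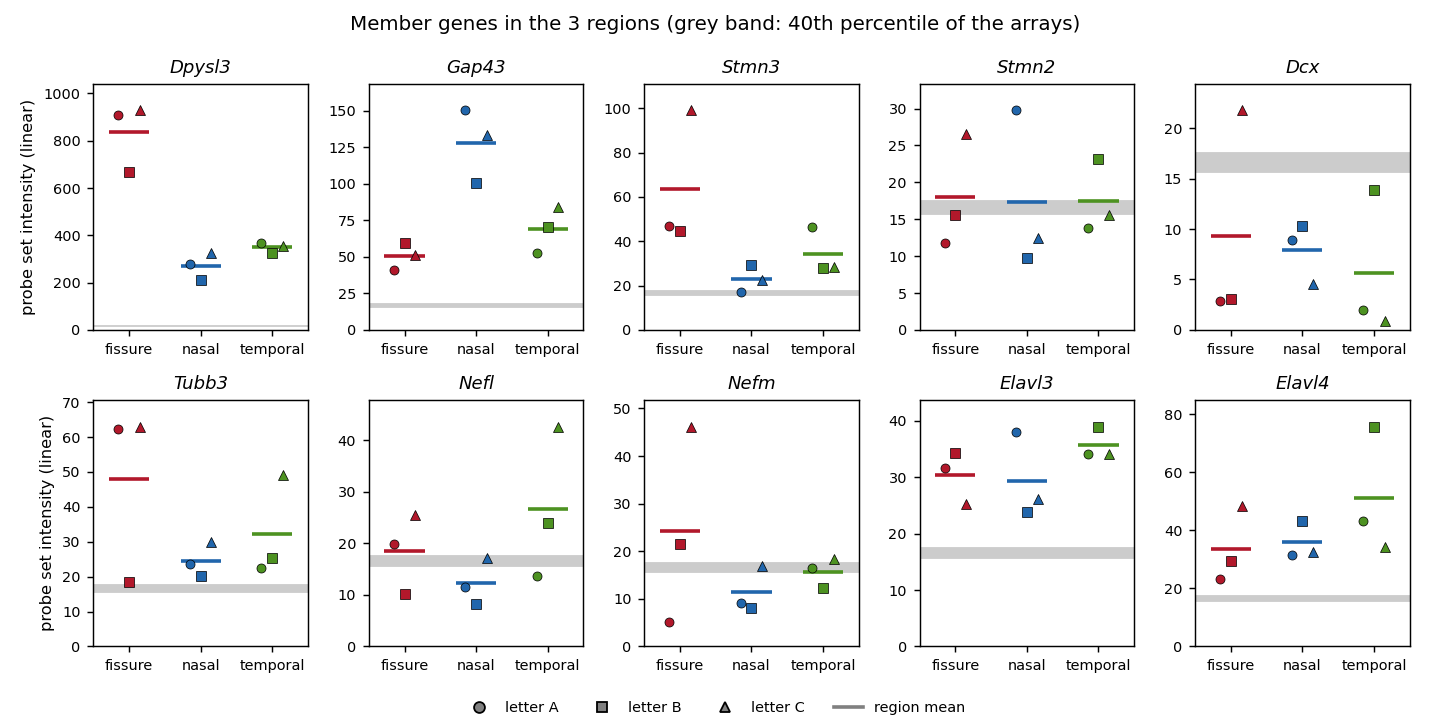
Linear probe set intensity of the main probe set of each member in the fissure, nasal and temporal samples; symbols are the 3 arrays of a region by letter, lines are region means, and the grey band spans the 40th percentile of the arrays (15.7 to 17.5). Dpysl3 is above 668 in all fissure arrays and below 368 elsewhere, while most arrays of Stmn2 and Dcx lie in or under the band.

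Dpysl3 encodes a collapsin response mediator protein (CRMP4), a cytosolic protein that binds cytoskeletal proteins in growing neurons. Its main probe set, 1454613_at, read 909, 668 and 929.7 in fissure arrays A, B and C. Nasal arrays read 279, 211 and 324, and temporal arrays 368, 326 and 356. Every fissure array thus lay above every array of the other regions, and the temporal arrays lay above the nasal ones. The fissure mean of 836 ± 145 was 2.69 times the mean of the other 2 regions (272 ± 57.0 nasal and 350.0 ± 21.5 temporal; SD, n = 3 each). On the log2 scale Dpysl3 rose by 1.39 (SE 0.17, 95% interval 1.02 to 1.75, limma adjusted p = 3.47e-04). Within letters A, B and C the fissure exceeded the mean of its nasal and temporal partners by 1.46, 1.30 and 1.41.

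Compared with the nasal cup alone Dpysl3 rose by 1.57 (SE 0.19, adjusted p = 5.60e-04), and compared with the temporal cup by 1.21 (SE 0.19, adjusted p = 0.00316). The nasal cup was lower than the temporal cup by 0.37 (SE 0.19), with an unadjusted p of 0.0824 and an adjusted p of 0.99985, so the order of those 2 regions is not settled although their arrays do not overlap. Across 23 alternative settings the rise over the mean of both sides ranged from 1.21 to 1.54 and always passed. The rise over the temporal cup missed the threshold in 1 of them, with poly-A spike signal as covariate (1.09, adjusted p = 0.0610).

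The rise of Dpysl3 was measured by 3 probe sets. The dimmer probe set 1415877_at read 264, 283 and 170.5 in the fissure, 72.8, 48.4 and 107 in the nasal and 75.4, 88.6 and 139.9 in the temporal cup. The dimmest, 1438789_s_at, read 47.5, 56.5 and 41.9 in the fissure, 15.2, 13.7 and 17.3 in the nasal and 22.0, 11.2 and 30.4 in the temporal cup. In both probe sets the fissure arrays again lay above all others. Tested on their own among 23503 probe sets, they rose by 1.31 (adjusted p = 0.00898) and 0.93 (adjusted p = 0.00930) over the mean of both sides. Over the temporal cup 1438789_s_at passed narrowly (adjusted p = 0.0497) and 1415877_at did not (adjusted p = 0.0539). Over the 9 arrays the 3 probe sets correlated at 0.881 to 0.920. Within the fissure they differed in order, since fissure array C was the brightest for the main probe set and the dimmest for the other 2.

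**Figure D2:**
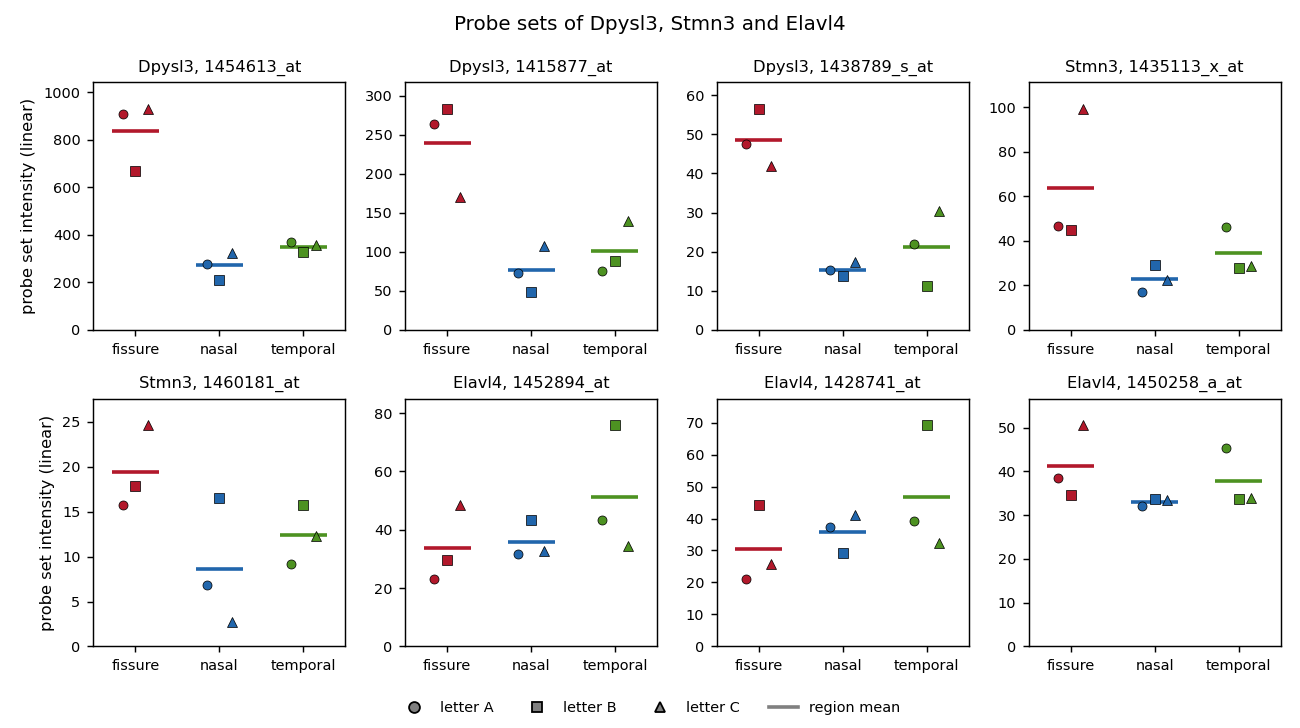
Linear intensity of all probe sets of Dpysl3, Stmn3 and Elavl4 by region; symbols are arrays by letter and lines are region means. The 3 probe sets of Dpysl3 share the high fissure arrays, those of Stmn3 differ in separation, and those of Elavl4 differ in which array is brightest.

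Markers of other cell types moved with the same comparison. Markers of macrophages and other leukocytes rose in 15 of 15 tested, and their summed intensity over 17 genes was 3133 to 3809 in fissure, 609 to 871 in nasal and 480 to 770 in temporal samples. Lens markers rose in 5 and fell in 1 of 9, with sums of 2588 to 3693, 749 to 805 and 689 to 1343. Periocular mesenchyme markers rose in 5 and fell in 2 of 14, with sums of 1277 to 2578, 867 to 1315 and 698 to 1482. Without fissure array A 3 of the mesenchyme genes passed, and without fissure array C 4 did. C1qa, C1qc and Aif1 among the leukocyte markers, and Eya2 in the mesenchyme, met the lower limit for testing through their fissure arrays alone. C1qa read 46.0, 30.9 and 54.2 there and 1.30 to 4.60 elsewhere. Itgam, at 4.30 to 14.0 over all arrays, was not tested. The limit thus favoured genes high in the fissure, and the counts of markers that rose are in part set by it. No marker in these lists was listed at 0 in any array. Their part in the rise of Dpysl3 or Stmn3 was not tested. In such bulk samples fewer cells of a type and less RNA per cell cannot be told apart.

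Gap43, the growth cone gene, showed another pattern. Its probe set, 1423537_at, read 150.4, 100.5 and 133 in nasal arrays A, B and C, against 40.8, 59.6 and 51.5 in the fissure and 52.9, 70.7 and 84.2 in the temporal cup. All nasal arrays lay above all others, and fissure and temporal arrays overlapped. Gap43 in the fissure fell by 1.11 on the log2 scale against the nasal cup (128 ± 25.3 nasal and 50.6 ± 9.43 fissure; SE 0.20, limma adjusted p = 0.00636). This comparison passed under all 23 alternatives, with adjusted p at most 0.0424. Against the temporal cup (69.3 ± 15.7) the change was -0.35 (95% interval -0.79 to 0.09, adjusted p = 0.397).

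Against the mean of both sides Gap43 fell by 0.73 (SE 0.17, adjusted p = 0.0230), by 0.91, 0.41 and 0.86 within letters A, B and C. That call was lost without fissure array A (adjusted p = 0.147), fissure array C (0.0873) or nasal array A (0.0540). It was also lost with poly-A spike signal as covariate (0.0537) and when nasal and temporal arrays were pooled as 1 group (0.0917). Gap43 is measured by 1 named probe set, so no second probe set bears on it.

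Stmn3, a neuronal stathmin that binds tubulin dimers, read (1435113_x_at) 46.7, 44.7 and 99.2 in the fissure, 17.2, 29.1 and 22.4 in the nasal and 46.4, 27.9 and 28.6 in the temporal cup. Fissure array C was more than double its 2 fellow arrays, and temporal array A lay between the lower fissure arrays. Stmn3 rose by 0.80 over the mean of both sides (SE 0.22, limma adjusted p = 0.0473) and by 0.98 over the nasal cup (SE 0.25, adjusted p = 0.0438). Over the temporal cup the change was 0.61 (95% interval 0.06 to 1.17, adjusted p = 0.224). The call over the mean of both sides held in 8 of 22 alternatives, and so did that over the nasal cup. Without fissure array C the change was 0.50 (adjusted p = 0.231). It was also lost on leaving out fissure array A, any 1 of the 3 nasal arrays, or temporal array B or C, with adjusted p of 0.0537 to 0.102. With the Gapdh ratio as a covariate the change was 0.61 (adjusted p = 0.0879).

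The main probe set of Stmn3 carries the suffix _x_at, which the manufacturer gives to probe sets with probes that can match other transcripts. The second probe set of Stmn3, 1460181_at, was dimmer, at 15.7, 17.9 and 24.6 in the fissure, 6.80, 16.5 and 2.70 in the nasal and 9.20, 15.7 and 12.3 in the temporal cup. It had a change of 0.43 (adjusted p = 0.232 among probe sets), with the fissure and nasal arrays overlapping. On the same basis the first probe set had an adjusted p of 0.0658, so neither passed among probe sets.

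Stmn2, the stathmin also known as SCG10, read 11.8, 15.6 and 26.5 in the fissure, 29.8, 9.80 and 12.4 in the nasal and 13.8, 23.2 and 15.6 in the temporal cup. Only 1 array of each region lay above its array's 40th percentile, and the regions overlapped throughout. The change against the mean of both sides was 0.03 (95% interval -0.43 to 0.48, adjusted p = 0.959). Its second probe set was dimmer still, with a mean of 10.7.

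Dcx, which encodes the microtubule-stabilising protein doublecortin of migrating young neurons, was the one member below the limit for testing. Its main probe set read 2.90, 3.10 and 21.8 in the fissure, 8.90, 10.3 and 4.60 in the nasal and 2.0, 13.9 and 0.900 in the temporal cup. Fissure array C was the single array above the 40th percentile. None of the other 3 Dcx probe sets reached that percentile on any array, and the correlations between the 4 probe sets over the arrays ran from -0.566 to 0.446. These values show no ordered signal of Dcx, and a difference between regions was not detectable here.

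Tubb3, the beta-tubulin most used as a marker of neurons, read 62.2, 18.6 and 63.0 in the fissure. Nasal arrays read 23.5, 20.1 and 29.8 and temporal arrays 22.4, 25.3 and 49.0. Fissure arrays A and C were thus the brightest of the 9 and fissure array B the dimmest. The change against the mean of both sides was 0.46 (95% interval -0.13 to 1.05, limma adjusted p = 0.354). Of 22 alternatives it passed in 2, without fissure array B (0.86, adjusted p = 0.0230) and with array weights (0.84, adjusted p = 0.00435). Without all 3 arrays of letter B the change was 0.77 (adjusted p = 0.0542).

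Nefl and Nefm encode chains of the neurofilament, the intermediate filament of axons. Nefl read 19.9, 10.1 and 25.5 in the fissure, 8.20 to 17.1 in the nasal and 13.7, 23.9 and 42.7 in the temporal cup. Nefm read 5.20, 21.6 and 46.2 in the fissure, 9.10, 8.10 and 16.9 in the nasal and 16.5, 12.2 and 18.3 in the temporal cup. In both genes 5 of 9 arrays lay above the 40th percentile and the regions overlapped, with array C the brightest of each region. The changes against the mean of both sides were 0.00 for Nefl (95% interval -0.49 to 0.49) and 0.33 for Nefm (95% interval -0.27 to 0.92, adjusted p = 0.533). The second probe set of Nefl gave -0.23 (adjusted p = 0.617 among probe sets).

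Elavl3 and Elavl4 (HuC and HuD), which stabilise messenger RNAs in neurons, lay above the 40th percentile on all 9 arrays. Elavl3 read 31.7, 34.4 and 25.3 in the fissure, 38.1, 23.9 and 26.2 in the nasal and 34.1, 39.0 and 34.1 in the temporal cup. With a within-region SD of 0.17 on the log2 scale, against 0.25 for the median tested gene, it was the steadiest member. Its change against the mean of both sides was -0.06, with a 95% interval of -0.37 to 0.26. Its other 2 probe sets never reached the 40th percentile.

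Elavl4 read 23.3, 29.5 and 48.5 in the fissure, 31.7, 43.4 and 32.7 in the nasal and 43.2, 75.8 and 34.4 in the temporal cup, with temporal array B the highest. The change was -0.25 (95% interval -0.72 to 0.22, limma adjusted p = 0.547). Its 3 probe sets differed in sign, at -0.25, -0.31 and 0.15, and none passed. Temporal array B was also the brightest in 1428741_at (69.1), whereas fissure array C was the brightest in 1450258_a_at (50.5).

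**Figure D3:**
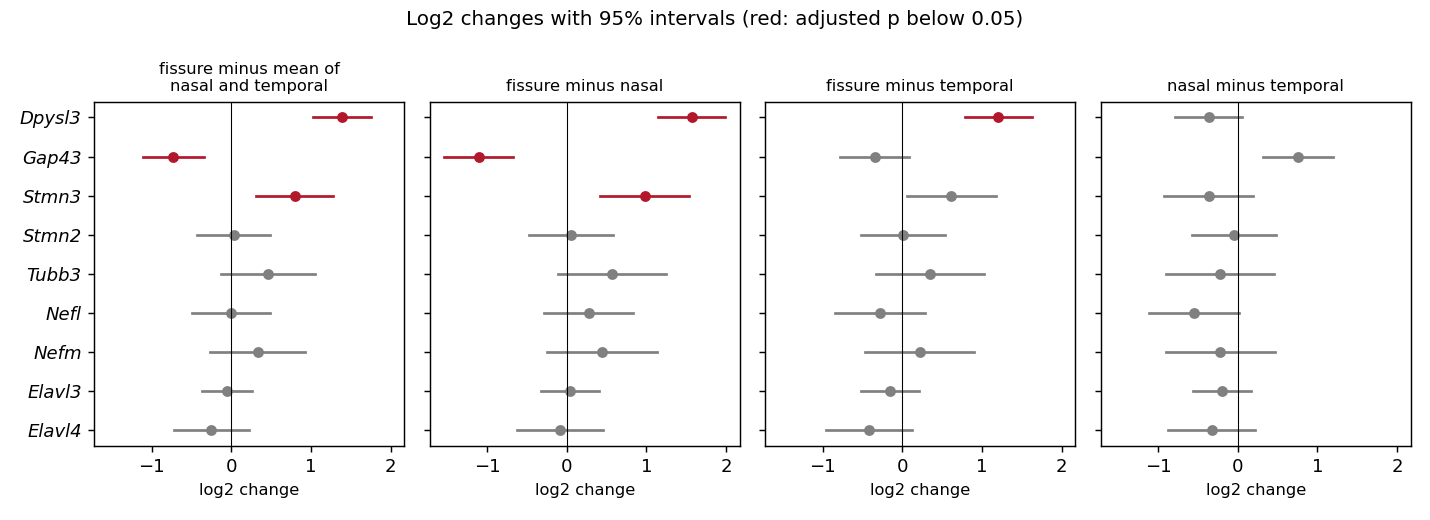
Log2 changes of the 9 tested members in the 4 comparisons, on the log2(intensity + 16) scale, with 95% intervals from limma; red marks an adjusted p below 0.05. The intervals of Dpysl3 lie above 0 in all 3 fissure comparisons, and those of Stmn2, Tubb3, Nefl, Nefm, Elavl3 and Elavl4 include 0 in all 4.

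Taking the sides of the cup one at a time, the fissure differed from the nasal cup in Dpysl3 and Stmn3 (higher) and Gap43 (lower), 3 of 9 members, and the arrays of these 3 did not overlap. The median change of the tested members was 0.27, against 0.04 for all genes. Over all genes 4.41% rose and 1.97% fell in this comparison, and 22.5% had separate arrays. Between fissure and temporal cup Dpysl3 rose, 1 of 9, and no member fell. There 3.47% of all genes rose, 1.9% fell and 21.7% had separate arrays. Stmn3 had an unadjusted p of 0.0340 in limma for this comparison (adjusted p = 0.224).

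Between the nasal and temporal cup the median change of the tested members was -0.22, against -5.15e-04 for all genes. No member passed in limma, and 0.047% of all genes passed. The member with the smallest p was Gap43, higher in the nasal cup by 0.76 (95% interval 0.32 to 1.19, unadjusted p = 0.00278, adjusted p = 0.739). Within letters A, B and C it was higher by 1.27, 0.43 and 0.57. Gap43 and Dpysl3 were the members whose nasal and temporal arrays did not overlap, in opposite directions, against 6.8% of all genes. The widest gap after Gap43 was that of Nefl, lower in the nasal cup by 0.55 (95% interval -1.12 to 0.01), followed by Dpysl3, Stmn3 (-0.36) and Elavl4 (-0.33).

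**Figure D4:**
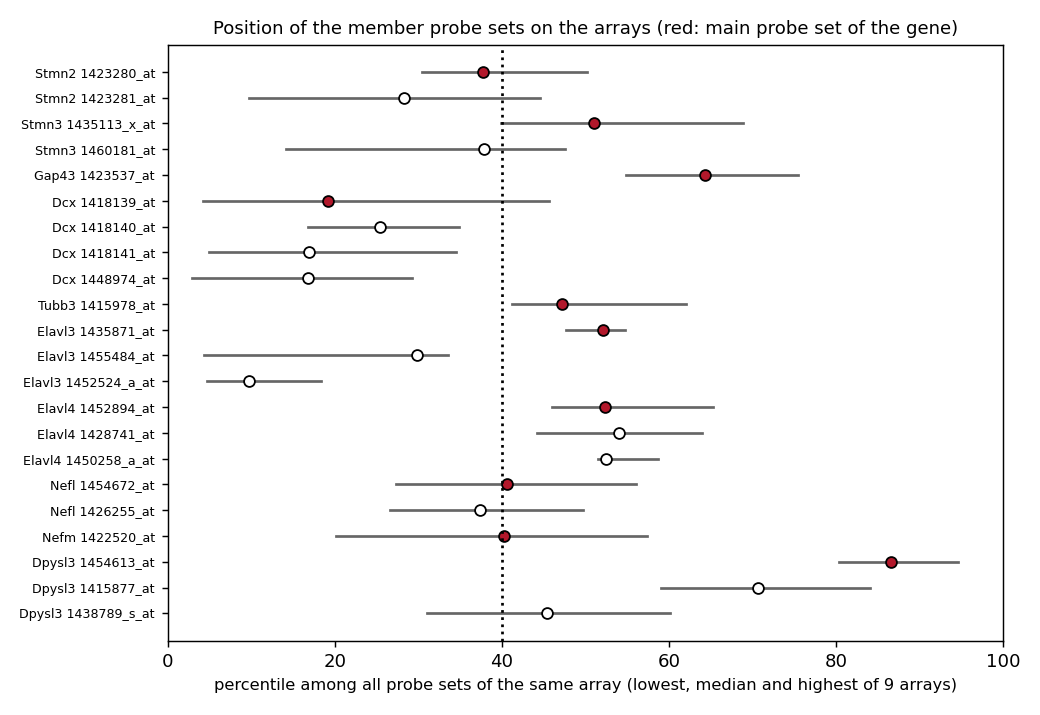
Percentile of each of the 22 member probe sets among all probe sets of its array, with the lowest, median and highest of 9 arrays; red points are the main probe sets and the dotted line is the 40th percentile. The main probe set of Dpysl3 lies between the 80.3 and 94.5 percentiles and that of Gap43 between 54.8 and 75.5, and the main ones of Stmn2, Nefl and Nefm straddle the line.

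The positions of the probe sets on the arrays show how much signal there was to compare. A probe set's brightness depends on its probes as well as on the transcript, so these positions do not rank the genes by amount. Of the 22 probe sets, 8 lay above the 40th percentile on all arrays and 5 on none. The median percentile was 86.6 for Dpysl3, 64.3 for Gap43 and 47.2 to 52.4 for Tubb3, Stmn3, Elavl3 and Elavl4. Nefl, Nefm and Stmn2 had medians of 40.6, 40.2 and 37.7, and Dcx 19.2. The members that passed included the 2 with the highest positions.

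Further genes of the neuronal cytoskeleton were taken from a fixed list of 34, of which 31 were tested. Against the mean of both sides 1 rose and 1 fell, and under a replicate block, in which the letter is a term, 2 rose and 4 fell. Over all 12770 genes tested, 5.72% rose and 2.88% fell, and the block raised the number passing from 1098 to 2172. Without fissure array B 4 genes of the list passed. The median change was 0.03. Tubb2a, another beta-tubulin, rose from 166 ± 45.7 nasal and 159 ± 35.2 temporal to 393 ± 73.4 (SD, n = 3 each), by 1.21 on the log2 scale (limma adjusted p = 0.00261). Without probe sets whose suffix is _x_at or _s_at, a choice made after seeing the data, it was 0.30 (adjusted p = 0.259). Stmn4, a further neuronal stathmin, fell by 1.68 (SE 0.30, adjusted p = 0.00446), at 20.9, 13.4 and 61.1 in the fissure against 81.0 to 175 elsewhere. It went the other way from Stmn3.

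Members of the same families were compared by name, a choice made after their values were seen. Among the other collapsin response mediator genes the change against the mean of both sides was -0.14 for Dpysl2 (95% interval -0.52 to 0.24), 0.13 for Dpysl4 (-0.40 to 0.66), -0.19 for Dpysl5 (-0.66 to 0.28) and 0.24 for Crmp1 (-0.12 to 0.60). None of these 4 passed, and none of their intervals reaches the lower bound of Dpysl3, 1.02. Tubb2b, a beta-tubulin gene brighter than Tubb2a, went the other way from it, averaging 960 in the fissure against 1324 nasal and 1382 temporal. Its change was -0.48 (95% interval -0.83 to -0.13, limma adjusted p = 0.0969, and 0.0306 under the replicate block). Stmn1, the stathmin of dividing cells, was bright at 6995 to 9301 over the 9 arrays with a change of -0.09 (95% interval -0.38 to 0.19). Elavl2, the Hu family gene also active outside neurons, had a change of -0.40 (adjusted p = 0.272), and Ina, a neuronal intermediate filament gene, by 0.00 (adjusted p = 0.994).

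Pan-neuronal membrane, synaptic and RNA-binding genes formed a fixed list with 29 tested. Of these 2 rose and 0 fell in limma, 5 and 1 under the replicate block, and 8 and 4 at an unadjusted p below 0.05. Over all genes 5.72% rose and 2.88% fell, and under the block 2172 of 12770 passed. The share of all genes at an unadjusted p below 0.05 was not counted. The median change was 0.15. Cntn1, which encodes the adhesion protein contactin-1, rose from 44.9 nasal and 21.8 temporal to 86.9 (log2 change 1.10, limma adjusted p = 0.0162). Gng3, a G-protein subunit gene of neurons, rose from 64.2 and 59.3 to 95.8 (0.53, adjusted p = 0.0200). Without fissure array A neither passed (adjusted p = 0.0520 and 0.102). Without fissure array B 7 genes of the list passed, and without fissure array C 1 did.

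Among transcription factors and Notch ligands of early neurogenesis 4 of 23 tested fell and 1 rose, with a median change of -0.18. The other 18 did not pass. Neurog2, a proneural factor, read 28.9 in the fissure against 110.2 nasal and 277.8 temporal (log2 change -2.06, limma adjusted p = 7.38e-04). Neurod1, a factor of differentiating neurons, fell by 1.78 (adjusted p = 0.00225) and Sox11 by 0.72 (adjusted p = 0.00404). Sox4, a relative of Sox11 in the same subfamily, rose by 1.09 (adjusted p = 0.00235). With the mean of its probe sets the change of Sox11 was -0.50 (adjusted p = 0.105).

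Atoh7, the factor that makes retinal progenitors competent to form ganglion cells, is named after its values were seen. It read 48.7, 16.5 and 293 in the fissure, 159, 48.0 and 432 in the nasal and 391, 454 and 513 in the temporal cup. Array C was the brightest of each region. The change against the mean of both sides was -1.70 (limma adjusted p = 0.149, and 0.0200 under the replicate block).

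**Figure D5:**
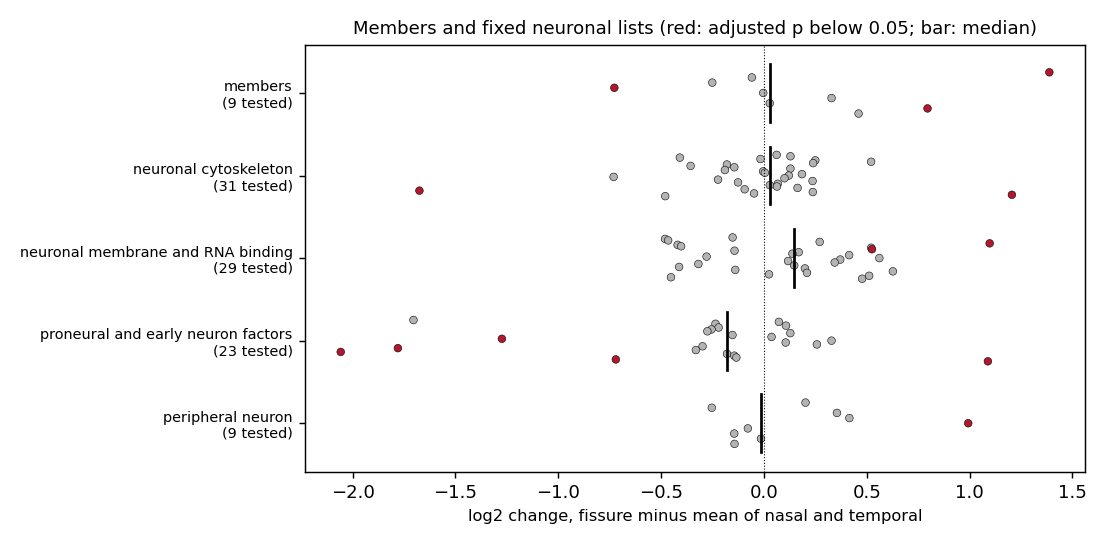
Log2 change of the tested members and of the tested genes in 4 fixed neuronal lists, fissure minus the mean of nasal and temporal; each point is a gene, red points passed at an adjusted p below 0.05, and bars are medians. Most points of the cytoskeleton list lie near its median of 0.03, and the 4 genes that fell among proneural and early neuron factors range from -2.06 to -0.72.

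Neurons outside the cup were also looked for. Of 16 genes with a probe set in a list of peripheral sensory, sympathetic and oculomotor neuron markers 9 were tested. Ntrk2, which encodes the receptor of brain-derived neurotrophic factor, rose by 0.99 (limma adjusted p = 0.00408), but with the mean of its probe sets the change was 0.31 (adjusted p = 0.0960). No other gene of that list passed, and its summed intensity was 421 to 526 in fissure, 294 to 405 in nasal and 291 to 453 in temporal samples. Of these sums Ntrk2 alone averaged 249, 120 and 117, and the median change of the list was -0.01. Among forebrain markers 2 of 10 were testable and both rose, Wnt7b by 1.01 and Emx2 by 0.97 (adjusted p = 0.00855 and 0.0259), and sums were 165 to 262, 107 to 129 and 83.8 to 102.5. Without fissure array A neither passed. Of 7 neural crest and glial markers Ednrb rose by 0.95 and Kit fell by 1.11 (adjusted p = 0.0149 and 0.00197). Ednrb did not pass with the mean of its probe sets (0.42, adjusted p = 0.0596) or without fissure array A (adjusted p = 0.0553), and neither passed with poly-A spike signal as covariate (adjusted p = 0.0667 and 0.0543). The sums of these markers were 6711 to 8592, 8652 to 9628 and 7458 to 9259. Most of each sum came from Dct and Pmel, which are also in the pigment epithelium list. Dct averaged 3147 in fissure, 3671 in nasal and 3369 in temporal samples, and Pmel 4119, 5070 and 4790. The sums therefore say little about crest or glial cells. The part of these cells in the members' changes was not tested.

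The remaining fixed lists gave counts alone, to be read beside the 5.72% of all genes that rose and 2.88% that fell. Under the block 2172 of 12770 genes passed, and the share at an unadjusted p below 0.05 was not counted. None of 11 endothelial genes passed in limma, 2 were higher at an unadjusted p below 0.05 and 1 rose under the replicate block. None of 8 erythroid genes passed, 4 were higher at an unadjusted p below 0.05 and 3 rose under the block. Of 11 neural retina progenitor genes 4 fell and 0 rose, against 5 and 1 both under the block and at an unadjusted p below 0.05. Of 11 pigment epithelium genes 2 rose and 5 fell.

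Members varied together only in part. Of the 36 pairs of tested members 23 correlated above 0 over the 9 arrays, which include the differences between regions. Pearson's r was highest between Stmn3 and Dpysl3 (0.799), Tubb3 and Nefl (0.712) and Stmn3 and Nefm (0.679), and lowest between Stmn3 and Gap43 (-0.794) and between Gap43 and Dpysl3 (-0.761). The gene whose values over the 9 arrays were most like those of Dpysl3 was Cp, which encodes ceruloplasmin (r = 0.993), followed by Rab29 (0.980). For Gap43 they were Sez6 (0.922) and Exosc8 (0.922), for Stmn3 Klf10 (0.948) and Lyl1 (0.944), and for Tubb3 Wwp2 (0.979) and B4galt5 (0.973). The average of the members' standardised values was most like Ipo9 (0.955) and Gm8273 (0.926), and least like 1600012H06Rik (-0.956). These correlations are the extremes over all tested genes, on arrays that share the differences between regions, and are given as descriptions.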

How the data were processed

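The deposited table holds probe set intensity values on a linear scale, 1 biotin-labelled array per sample per the labels. The authors' probe summary and scaling are not given in the sources used here. Symbols came from the platform annotation, and 10 of 10 members matched RefSeq (GRCm38.p6) by gene ID. Log2(intensity + 16) was computed for the probe set with the highest mean per gene. Genes brighter than the array's 40th percentile in 3 or more arrays were tested, 12770 of 18193. Linear models with a mean for each region were fitted across the 9 arrays (limma 3.58.1, lmFit and eBayes, R 4.3.3), with Benjamini-Hochberg adjustment over all tested genes, and a gene passed below 0.05. The fit was tested on simulated data, with 200 of 12770 genes changed in the fissure. Against the mean of both sides it recovered 10% of log2 changes of 0.5, 72% of 1 and 98% of 1.5. In the simulation changes of 0.5 were thus mostly missed. It had fewer changed genes than the 1098 that passed in the data, and no residuals shared within a letter. Its rates need not carry over, and Gng3 passed in the data at 0.53. Figures were drawn with matplotlib 3.10.9.

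Residuals of samples sharing a letter correlated at 0.166 to 0.487 in 9 of 9 pairs, so the letters may stand for pairs, from the data and not the labels. The main fit held no letter term, so its p-values do not use this pairing. For genes and lists against the mean of both sides, the fit with the letter as a block is given where it changes a named gene's call. It is also given there where it moves a count by more than 1.5 times. In the other comparisons the block changed further calls that are not listed. Among them is Neurog2, lower in the nasal than in the temporal cup (limma adjusted p = 0.606, and 0.0136 under the block).

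Members, lists and tests were chosen with earlier results of these data known. Members are all named. From each list at most 4 passing genes with the smallest p are named, and as likeness the genes with the highest correlations over the arrays. Alternatives covered filter, normalization, pseudocount, probe sets, variance model, array weights, block, regions fitted, the Gapdh ratio, the mean log2 signal of 24 poly-A spike probe sets, and each array left out. The choice without _x_at and _s_at probe sets was added after seeing the data. The number of arrays limits the precision.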

Additional observations from a re-analysis of the deposited data

How the results depend on the processing

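Against the mean of both sides 3 members passed. With poly-A spike signal as covariate 1 passed, and leaving out 1 array gave 1 to 4. The 3 arrays whose loss left 1 member, Dpysl3, were fissure A, fissure C and nasal A. Against the nasal cup alone 3 passed, and 2 to 4 with an array left out. Against the temporal cup 1 passed, 2 with array weights and 0 with the poly-A spike. The cause was not tested. Between nasal and temporal cup 0 passed in limma in every alternative run. The replicate block gave 3, 3, 1 and 0 members in the 4 comparisons and changed no member's call, while over all genes it raised the count against the mean of both sides from 1098 to 2172. Array weights gave 4100, the poly-A spike 444, and leaving out an array 486 (fissure A) to 1652 (fissure B). The corresponding counts were 814 genes against the nasal cup, with 1592 under the block, 2675, 412 and 373 to 1181, 685 against the temporal cup, with 1541, 3133, 289 and 329 to 1101, and 6 between nasal and temporal cup, with 17, 10, 7 and 2 to 8. The lowest of these counts came without fissure A in each fissure comparison and without temporal A or B in the last. Counted once per member, comparison and alternative setting, 691 refits kept the sign and call of the main fit. Another 34 lost and 5 gained a call, and 50 that passed in neither fit changed sign.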
